A study of Mus musculus with 11 samples.

Results

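The genes described here are a list of 43 genes of glycolysis, of pyruvate and lactate handling, of the response to low oxygen and of the Txnip branch of glucose sensing. They were chosen by name, with earlier results of these data known, so shares of the list set against all genes are descriptions. Of the 43, 38 had at least 1 probe set that the platform annotation assigns to that symbol alone. In all, 15803 genes were measured in this way. Pgk1, Pgam1, Pkm2, Ldha and Arrdc3 had no such probe set and were not analysed here. By role, the 38 measured genes were 2 glucose transporters, 10 genes of the hexose phosphate steps, 4 of the steps from triose to pyruvate, 7 of pyruvate and lactate fate, 4 HIF subunits and oxygen sensors, 9 targets of the hypoxia response, and Txnip with the related arrestin Arrdc4. Tpi1, which interconverts trioses, was counted with the hexose phosphate steps.

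Glycolysis takes glucose through phosphorylated hexoses and trioses to pyruvate. Pyruvate is either oxidized by pyruvate dehydrogenase in mitochondria or reduced to lactate and exported. Hypoxia-inducible factor (HIF) raises the transcription of many of these genes when oxygen is scarce; prolyl hydroxylases such as Egln1 and Egln3 mark its alpha subunit for destruction when oxygen is present, and both of their genes can themselves be induced by HIF. Txnip encodes an alpha-arrestin that binds thioredoxin and lowers glucose uptake, and its transcription follows glucose metabolites through the factors MondoA or ChREBP with their partner Mlx. Neurons depend on glucose, and motor neuron models are often examined for shifts between glycolysis and mitochondrial oxidation.

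The cells were NSC34, a mouse line made by fusing neuroblastoma with spinal cord cells, which keeps some traits of motor neurons. Stable lines carried one of 3 short hairpins in the pSUPERIOR vector: shTardbp against Tardbp, which encodes TDP-43, a splicing regulator that binds RNA (4 arrays, numbered 1 to 4), shGFP against green fluorescent protein (4 arrays, numbered 1, 2, 3 and 5) and shLuciferase against Renilla luciferase (3 arrays, numbered 1, 2 and 4). All 3 groups, controls included, went through lipofection, puromycin selection and clone isolation. How many clones or cultures stand behind the arrays of a group is not given, nor are oxygen, glucose or cell density, so the p-values speak only for the spread among these arrays, part or all of which may be technical.

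The stretches just upstream of 4 members are shown because the results turn on these genes: Txnip had the widest gap between the controls, and Pdk1, Bnip3 and Egln3 had the largest gaps between shTardbp 2 and the other shTardbp arrays. Each run holds the 250 bases before the first listed start of the gene in RefSeq on GRCm38.p6, 5′ to 3′ on the gene's strand, at chr3:96557707-96557956 (plus strand), chr2:71872974-71873223 (plus), chr7:138909507-138909756 (minus) and chr12:54203875-54204124 (minus) in the order given. Capitals in Txnip mark a stretch made of CACGAG, 5 further bases and a second CACGAG, the letters of its carbohydrate response element, to which MondoA and ChREBP bind with Mlx. In the other 3 they mark ACGTG or GCGTG on either strand, the core letters of the hypoxia response element. The Txnip run also holds 2 GCGTG matches, which are left in small letters.
Txnip: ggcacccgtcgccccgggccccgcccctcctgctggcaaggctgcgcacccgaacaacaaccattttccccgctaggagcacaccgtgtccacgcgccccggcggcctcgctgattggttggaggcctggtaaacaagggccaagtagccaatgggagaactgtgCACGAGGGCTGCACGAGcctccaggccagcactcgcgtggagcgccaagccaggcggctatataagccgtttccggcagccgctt
Pdk1: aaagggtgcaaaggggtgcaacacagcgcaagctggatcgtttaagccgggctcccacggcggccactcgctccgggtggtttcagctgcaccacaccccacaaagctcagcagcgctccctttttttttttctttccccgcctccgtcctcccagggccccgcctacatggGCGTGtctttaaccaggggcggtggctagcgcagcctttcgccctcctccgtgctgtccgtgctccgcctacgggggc
Bnip3: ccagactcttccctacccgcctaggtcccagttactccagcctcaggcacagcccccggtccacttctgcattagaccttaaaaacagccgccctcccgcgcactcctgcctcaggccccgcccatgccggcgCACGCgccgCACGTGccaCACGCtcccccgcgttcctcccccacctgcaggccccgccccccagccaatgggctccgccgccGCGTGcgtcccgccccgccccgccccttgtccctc
Egln3: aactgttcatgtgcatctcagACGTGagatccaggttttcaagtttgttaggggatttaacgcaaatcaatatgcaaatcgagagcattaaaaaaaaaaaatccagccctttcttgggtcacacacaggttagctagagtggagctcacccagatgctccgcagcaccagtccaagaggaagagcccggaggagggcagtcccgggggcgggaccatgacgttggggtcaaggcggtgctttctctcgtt

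In Txnip the capitals ran from 85 to 69 bases before the start, and among 27025 mouse genes with such a window Txnip was the 1 gene (0.0037%) that held this pattern, which was written after the Txnip element itself. In Bnip3 the capitals covered 5 matches between 117 and 31 bases before the start, and its middle one, CACGTG, holds ACGTG on both strands. The Pdk1 match lay 78 to 74 bases before the start and the Egln3 match 229 to 225 bases before it. Upstream windows were found for 35 of the 38 members, all but Slc2a3, Epas1 and Ndrg1. ACGTG or GCGTG on either strand stood in 27 of the 35 (77.1%), against 38.6% of the 27025 genes. CACGTG, every copy of which also counts as ACGTG, stood in 6 of the 35 (17.1%), against 6.05% of genes. These shares describe letters in a window that was not matched for base composition, and a match is not a binding site.

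Values are log2 expression values from Affymetrix whole-transcript arrays, with a gene's value taken as the mean over its probe sets. Array medians over probe sets ran from 6.82 to 6.92. Tardbp, the targeted gene, stood at 8.80 to 9.00 in the shTardbp arrays and 9.08 to 9.42 in the controls, with no overlap. Its log2 change was -0.40 (SE 0.0722, limma adjusted p = 0.000713; exact two-sided permutation p = 0.00303 over 330 splits, the smallest it can give). In the array codes of the labels, P is the opening letter for the shTardbp group and shLuciferase 4, and C for the other 6 arrays; the sources do not explain these letters. Blocking on the letter moved the Tardbp change to -0.29 (adjusted p = 0.173). Of 14 measured neuronal and motor neuron markers, 12 were above their array's 25th percentile on all 11 arrays, but Chat and Mnx1, which define motor neurons, were not. The summed level of the 14 neuronal and motor neuron markers was 14.32 to 14.52 in shTardbp and 14.22 to 14.30 in the controls, without overlap. Sums of the astrocyte, oligodendrocyte and Schwann, microglia and macrophage, endothelium, erythroid and muscle markers overlapped between shTardbp and controls. The summed level of the 5 fibroblast markers was 7.68 to 7.80 in shTardbp and 8.42 to 8.78 in the controls. Of these 5, Dcn (log2 -1.61) and Pdgfra (-0.92) fell (adjusted p = 2.77e-08 and 1.31e-06), Col1a1 and Col1a2 were at -0.02 and 0.02 (adjusted p = 0.901 and 0.882), and Lum was below background on every array. The part of these markers in the results was not tested.

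Eno1, Car9 and Arrdc4 never passed the 25th percentile of their array's probe sets (4.46 to 4.57), taken here as background, and Ldhb passed it on 2 of 11. These 4 genes were not shown to be expressed, and their values carry no direction here. The other 34 members lay above that level on all 11 arrays.

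The array shTardbp 2 stood apart from the other 3 of its group in these genes. It was the highest of the 4 shTardbp arrays for 27 of 38 members (71.1%), against 27.9% of all genes. It exceeded the mean of shTardbp 1, 3 and 4 by more than 0.5 on the log2 scale for 14 of 38 members (36.8%), against 1.08% of all genes, and no member lay more than 0.5 below it. Pdk1 (1.72 above the other 3), Bnip3 (1.29) and Egln3 (1.20) ranked 5, 12 and 13 of 15803 genes by this difference. Its array median, 6.90, lay within the 6.86 to 6.91 of the other 3 shTardbp arrays, and its Tardbp value, 8.80, was the lowest of the 4. Results that rest on it are therefore given with and without it. The array shTardbp 2 was singled out for its high values in these same members. Leaving it out lowers their shTardbp means and narrows their spread. Counts without it are therefore descriptions and no test of the list.

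Against both controls jointly, 3 of 38 members rose (Pfkm, Eno2 and Pdk2) and 8 fell (Slc2a1, Pfkfb3, Pdk3, Pdha1, Slc16a3, Egln3, P4ha2 and Txnip) past a limma adjusted p of 0.05. This share, 28.9%, was near the 30.5% of all genes that were called in this comparison (13.5% higher, 17% lower), so it is no result about the list. The median change of the members was -0.0403 on the log2 scale, against 0.00717 over all genes. Without shTardbp 2, the array set apart by these same genes, 2 members rose and 15 fell (44.7%, against 27.8% of all genes). In that fit Pfkm was no longer called, and Slc2a3, Hk2, Pdk1, Egln1, Bnip3, Ankrd37 and P4ha1 joined the 8 that fell. Blocking on the code letter, 2 rose (Pfkm and Eno2) and 3 fell (Pfkfb3, Pdk3 and Egln3), 13.2% against 15.9% of all genes.

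The picture depended on which control was used. Against shGFP, 2 members rose and 16 fell, 47.4% of the 38 against 27.9% of all genes (12.4% higher, 15.5% lower), with a median change of -0.19 for the members and 0.00825 for all genes. Against shLuciferase, 5 rose and 6 fell, 28.9% against 26.1% of all genes (11.8% higher, 14.3% lower), with medians of 0.056 and 0.00363. Both comparisons use the same 4 shTardbp arrays. The controls differed from each other as well: 11 members were higher in shGFP than in shLuciferase and 1 was lower, 31.6% against 11.1% of all genes (6.26% higher, 4.82% lower), with medians of 0.23 and -0.00685. Without shTardbp 2, 1 member rose and 20 fell against shGFP (55.3%, against 25.5% of all genes), 3 rose and 7 fell against shLuciferase (26.3%, against 24.3%), and 17 were higher and 1 lower in shGFP than in shLuciferase (47.4%, against 11%). The last count moved although no control array was left out, because the model takes 1 estimate of the spread from all 3 groups. With the code letter as a block, Pdk3, Egln3 and Txnip were the 3 members that fell against shGFP (7.89%, against 12.2% of all genes). In that fit 3 rose (Pfkm, Eno2 and Vegfa) and 3 fell (Pfkfb3, Pdk3 and Egln3) against shLuciferase (15.8%, against 18.8%), while 8 (Slc2a3, Tpi1, Eno2, Egln1, Vegfa, Bnip3, Ero1l and Txnip) were higher and 1 (Pfkfb3) lower in shGFP than in shLuciferase (23.7%, against 10.1%).

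**Figure D1:**
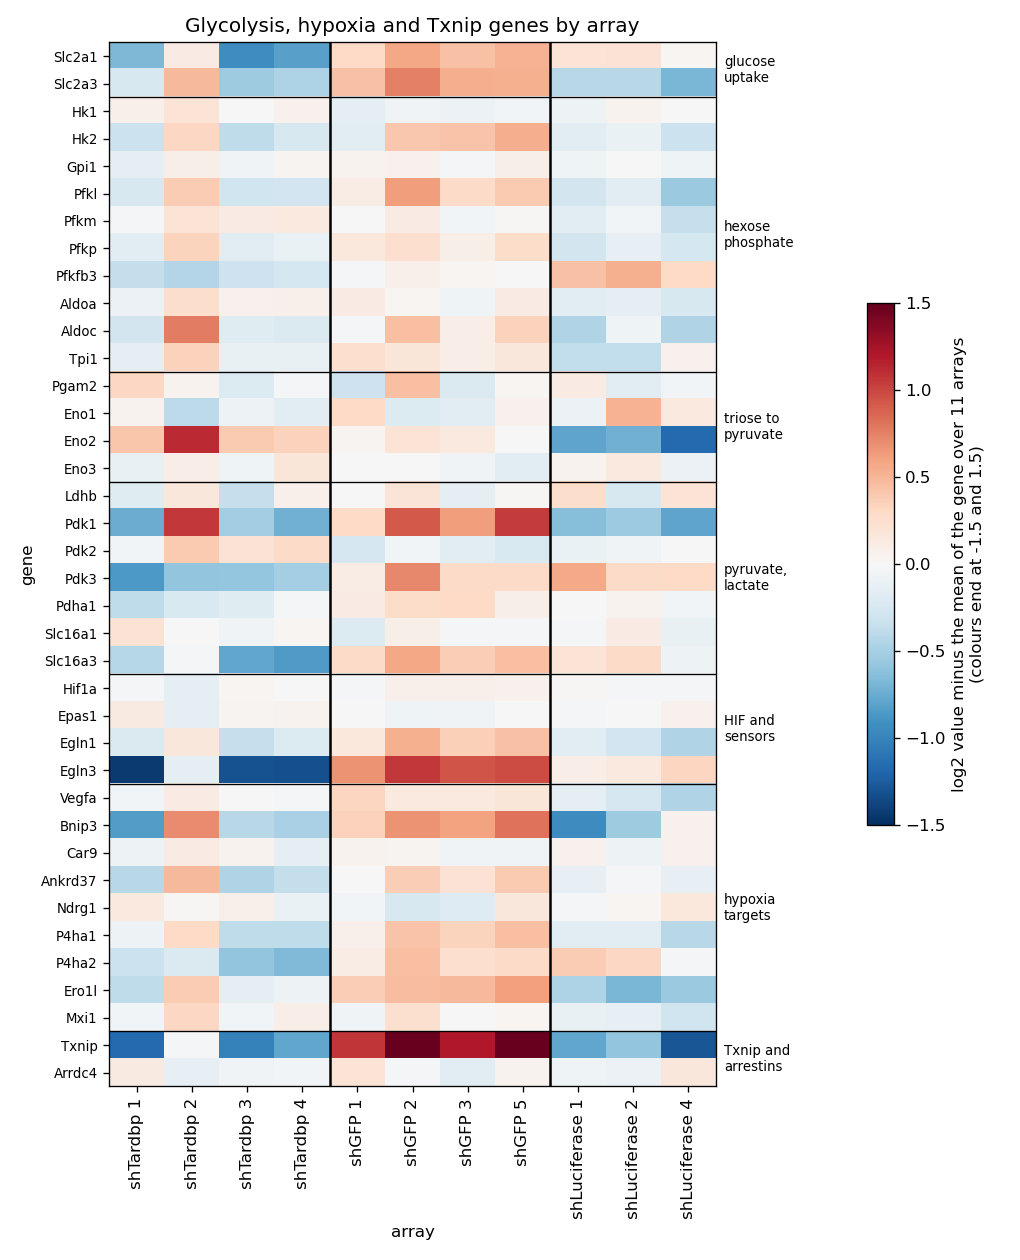
Each cell is the log2 value of 1 of the 38 measured genes (rows, grouped by role) on 1 array (columns: 4 shTardbp, 4 shGFP, 3 shLuciferase) minus the mean of that gene over the 11 arrays; red is above and blue below the mean, with colours ending at -1.5 and 1.5. The shTardbp 2 column is redder than the other 3 shTardbp columns, being the highest of the 4 in 27 of 38 rows, and 11 genes were called higher in shGFP than in shLuciferase.

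Txnip showed the widest gap between the controls. In array order, it stood at 5.15, 6.29, 5.30 and 5.54 in shTardbp, at 7.39, 8.02, 7.52 and 7.97 in shGFP and at 5.53, 5.72 and 5.03 in shLuciferase. The shGFP arrays lay above all others, while shTardbp and shLuciferase overlapped. Mean Txnip was 5.57 ± 0.506 in shTardbp, 7.72 ± 0.320 in shGFP and 5.42 ± 0.356 in shLuciferase; the error of group means is the SD throughout, over 4, 4 and 3 arrays. Txnip fell 4.45-fold against shGFP (log2 -2.15, SE 0.228, adjusted p = 1.14e-05), while its difference from shLuciferase was 0.15 (95% confidence interval -0.39 to 0.68, adjusted p = 0.777). Between the controls it was 4.92-fold higher in shGFP than in shLuciferase (log2 2.30, SE 0.246, adjusted p = 4.57e-05). The call against both controls together (log2 -1.004, SE 0.203, adjusted p = 0.00167) therefore rests on shGFP, and with the code letter as a block it was -0.51 (adjusted p = 0.404). All 10 Txnip probe sets moved the same way, lower in shTardbp than in the controls' average and higher in shGFP than in shLuciferase. In RNA of whole cultures, fewer cells expressing a gene and less of its RNA per cell cannot be told apart. Arrdc4, a related glucose-responsive arrestin, was not above background.

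Of the glucose transporters, Slc2a1 (GLUT1), the main carrier of basal glucose uptake, was at 9.64, 10.44, 9.39 and 9.51 in shTardbp, at 10.62, 10.90, 10.76 and 10.85 in shGFP and at 10.53, 10.54 and 10.36 in shLuciferase. The shTardbp arrays were lowest except shTardbp 2, which reached the shLuciferase values but not those of shGFP. Slc2a1 fell 1.84-fold against both controls (log2 -0.88, SE 0.155, adjusted p = 0.000587), 2.05-fold against shGFP (adjusted p = 0.000479) and 1.66-fold against shLuciferase (adjusted p = 0.0103). All 9 of its probe sets were lower, by -0.992 to -0.717. Without shTardbp 2 the change against both controls was -1.11 (adjusted p = 1.05e-06), and with the code letter as a block it was -0.73 (adjusted p = 0.134). Within the P arrays, the value of shLuciferase 4, 10.36, lay inside the shTardbp range.

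Slc2a3 (GLUT3), the high-affinity transporter of neurons, was at 9.16, 9.89, 8.87 and 8.93 in shTardbp, at 9.84, 10.15, 9.94 and 9.93 in shGFP and at 8.98, 8.99 and 8.71 in shLuciferase. Its shGFP values were high and its shLuciferase values low, with 3 shTardbp arrays near shLuciferase and shTardbp 2 inside the shGFP range. It fell 1.68-fold against shGFP (log2 -0.75, SE 0.176, adjusted p = 0.00502), and its difference from shLuciferase was 0.32 (interval -0.09 to 0.73, adjusted p = 0.268). It was 2.10-fold higher in shGFP than in shLuciferase (log2 1.07, SE 0.190, adjusted p = 0.00218). Against both controls its change was -0.21 (adjusted p = 0.374), and without shTardbp 2 it was -0.44 (adjusted p = 0.00312).

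Among the hexose phosphate genes, Pfkfb3 was the 1 of 10 that fell against each control. It encodes the bifunctional enzyme whose product, fructose 2,6-bisphosphate, activates phosphofructokinase. Its values were 7.02, 6.94, 7.07 and 7.12 in shTardbp, 7.36, 7.46, 7.41 and 7.38 in shGFP and 7.82, 7.91 and 7.67 in shLuciferase. All shTardbp arrays lay below all shGFP arrays, which in turn lay below all shLuciferase arrays, so no groups overlapped, and shTardbp 2 was the lowest of the 11. Pfkfb3 fell 1.48-fold against both controls (log2 -0.57, SE 0.0611, adjusted p = 1.04e-05), 1.29-fold against shGFP (adjusted p = 0.00104) and 1.70-fold against shLuciferase (adjusted p = 6.72e-06). It was also the 1 member lower in shGFP than in shLuciferase (log2 -0.40, SE 0.0742, adjusted p = 0.00313). That Pfkfb3 call was lost with the median of the probe sets (adjusted p = 0.112). Of its 19 probe sets 18 were lower in shTardbp than in the controls. With the code letter as a block the change against both controls was -0.41 (adjusted p = 0.0178), but the call against shGFP was lost (adjusted p = 0.390). No overlap between the 4 shTardbp and 7 control arrays was seen for 5 members, namely Pfkfb3, Pdk3, Egln3 and P4ha2 below and Eno2 above. That is 5 of 38, against 18.3% of all genes (9.82% below, 8.45% above).

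The 3 phosphofructokinase subunits, which form the committing enzyme of glycolysis, differed in which comparisons they passed. The muscle-type subunit Pfkm averaged 10.38 ± 0.0978 in shTardbp, 10.29 ± 0.0722 in shGFP and 10.09 ± 0.154 in shLuciferase (mean ± SD). It rose against both controls (log2 0.20, SE 0.0699, adjusted p = 0.0475) and against shLuciferase (0.30, adjusted p = 0.0176), but the first call held in only 3 of 11 fits that each left out 1 array, those without shTardbp 1, shGFP 2 or shLuciferase 2, and the second was lost without shLuciferase 4 (adjusted p = 0.0780). Both Pfkm calls were also lost with the median of the probe sets (adjusted p = 0.210 and 0.0946). The liver-type subunit Pfkl was at 9.62, 10.25, 9.56 and 9.58 in shTardbp, at 9.98, 10.49, 10.16 and 10.26 in shGFP and at 9.59, 9.71 and 9.31 in shLuciferase. Here shTardbp 2 lay among the shGFP arrays and the other 3 among shLuciferase. Pfkl fell against shGFP (log2 -0.47, SE 0.152, adjusted p = 0.0326) and was higher in shGFP than in shLuciferase (0.68, adjusted p = 0.0152), the second call being lost without shLuciferase 4 (adjusted p = 0.0720). The call against shGFP was lost when shTardbp 1, 3 or 4 or shGFP 2, 3 or 5 was left out (adjusted p up to 0.0999). The platelet-type subunit Pfkp had the same order of group means, 9.97 ± 0.245 in shTardbp, 10.19 ± 0.0894 in shGFP and 9.77 ± 0.0846 in shLuciferase, but differed only between the controls past the threshold (log2 0.42, SE 0.113, adjusted p = 0.0281), a call lost without shGFP 2, shGFP 5, shLuciferase 1 or shLuciferase 4 (adjusted p up to 0.0993). The Pfkp call was also lost with the median of the probe sets (adjusted p = 0.104).

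Hexokinases phosphorylate incoming glucose. Hk2, the inducible form, was at 6.35, 6.97, 6.28 and 6.43 in shTardbp, at 6.50, 7.07, 7.10 and 7.21 in shGFP and at 6.50, 6.57 and 6.35 in shLuciferase, with shTardbp 2 and 3 of 4 shGFP arrays above the rest. It fell 1.38-fold against shGFP (log2 -0.46, SE 0.161, adjusted p = 0.0478), a call that held in 2 of 11 fits that each left out 1 array, those without shTardbp 2 or shGFP 1, and that was lost with the replicate number as a block (-0.35, adjusted p = 0.121). Hk1, the constitutive form, differed by 0.13 against both controls (adjusted p = 0.0970). Aldoa, the main aldolase of most cells, averaged 12.40 ± 0.144 in shTardbp, 12.37 ± 0.0859 in shGFP and 12.14 ± 0.0496 in shLuciferase. It rose 1.20-fold against shLuciferase (log2 0.26, SE 0.0842, adjusted p = 0.0336), a call lost without shTardbp 2, 3 or 4 or any one shLuciferase array (adjusted p up to 0.0959). Aldoc, the aldolase of brain, was at 9.83 in shTardbp 2 and at 8.79 to 8.88 in the other shTardbp arrays, against 9.04 to 9.52 in shGFP and 8.61 to 9.00 in shLuciferase, and passed the threshold in none of the 4 comparisons. The isomerases Gpi1 and Tpi1 passed in none either, with changes of -0.01 and 0.02 against both controls (adjusted p = 0.909 and 0.924).

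Eno2 was the member that rose most. It encodes gamma-enolase, the neuronal form of the enzyme that makes phosphoenolpyruvate and a common marker of neurons. Eno2 was at 9.18, 9.88, 9.15 and 9.10 in shTardbp, at 8.80, 8.97, 8.90 and 8.77 in shGFP and at 7.97, 8.04 and 7.60 in shLuciferase. The order was shTardbp above shGFP above shLuciferase with no overlap, and shTardbp 2 was the highest array. It rose 1.95-fold against both controls (log2 0.96, SE 0.136, adjusted p = 9.62e-05) and 2.75-fold against shLuciferase (1.46, SE 0.165, adjusted p = 2.34e-05). Against shGFP the rise was 1.38-fold (0.47, SE 0.153, adjusted p = 0.0340), and it lost its call when shTardbp 2, shGFP 1, shGFP 3 or shGFP 5 was left out, with 0.28 (adjusted p = 0.0561) without shTardbp 2. This call held in 13 of the 20 alternatives run and was weakest with the median of the probe sets (adjusted p = 0.121). Between the controls Eno2 was 1.99-fold higher in shGFP (0.99, SE 0.165, adjusted p = 0.00141). All 13 probe sets were higher in shTardbp than in the controls, and with the code letter as a block the change was 1.30 (adjusted p = 0.00422). The muscle enolase Eno3 and the muscle phosphoglycerate mutase Pgam2 differed by 0.03 and 0.06 against both controls (adjusted p = 0.810 and 0.836), and Eno1, alpha-enolase, had 1 probe set that was not above background.

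The pyruvate dehydrogenase kinases, which restrain the oxidation of pyruvate in mitochondria by phosphorylating pyruvate dehydrogenase, differed in the direction of their changes. Pdk1, the kinase gene best known as a HIF target, was at 6.11, 7.91, 6.32 and 6.13 in shTardbp, at 7.15, 7.77, 7.47 and 7.90 in shGFP and at 6.20, 6.30 and 6.06 in shLuciferase. The shTardbp 2 value was the highest of all 11 arrays, while shTardbp 1, 3 and 4 lay with shLuciferase. Its change against both controls was -0.26 (adjusted p = 0.587), and without shTardbp 2 it was -0.69 (adjusted p = 0.00158). Pdk1 fell against shGFP (log2 -0.95, SE 0.316, adjusted p = 0.0367), with no call when shTardbp 1, 3 or 4 or shGFP 2, 3 or 5 was left out, or with the replicate number as a block (-0.75, adjusted p = 0.0691). Without shTardbp 2 the difference from shGFP was -1.39 (adjusted p = 2.15e-05) and that from shLuciferase was near 0 (adjusted p = 1.00). It was 2.61-fold higher in shGFP than in shLuciferase (1.39, SE 0.342, adjusted p = 0.0175), a call lost without shGFP 5, shLuciferase 1 or shLuciferase 4 (adjusted p up to 0.0632).

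Pdk3 was at 6.49, 6.76, 6.77 and 6.84 in shTardbp, at 7.47, 8.07, 7.64 and 7.65 in shGFP and at 7.92, 7.64 and 7.66 in shLuciferase. All 4 shTardbp arrays were low, shTardbp 2 included, and the controls overlapped each other. Pdk3 fell 2.01-fold against both controls (log2 -1.01, SE 0.108, adjusted p = 9.87e-06), by -0.99 against shGFP and -1.02 against shLuciferase, and the controls differed by -0.03 (adjusted p = 0.946). With the code letter as a block the fall was -0.90 (adjusted p = 0.0129). Pdk2, the most widely expressed kinase of the family, averaged 7.07 ± 0.183 in shTardbp, 6.68 ± 0.0922 in shGFP and 6.80 ± 0.0446 in shLuciferase, and rose 1.25-fold against both controls (log2 0.33, SE 0.0775, adjusted p = 0.00504) and against shGFP (0.39, adjusted p = 0.00398), while its difference from shLuciferase was 0.27 (adjusted p = 0.0515). With the code letter as a block the Pdk2 change was 0.27 (adjusted p = 0.261).

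Pdha1, the catalytic E1 alpha subunit of pyruvate dehydrogenase and the target of these kinases, averaged 8.91 ± 0.152 in shTardbp, 9.31 ± 0.107 in shGFP and 9.12 ± 0.0475 in shLuciferase. It fell against both controls (log2 -0.31, SE 0.0732, adjusted p = 0.00532) and against shGFP (-0.40, adjusted p = 0.00204), and its difference from shLuciferase was -0.21 (interval -0.40 to -0.02, adjusted p = 0.106). With the code letter as a block the change against both controls was -0.25 (adjusted p = 0.267). Slc16a3 (MCT4), the lactate exporter of glycolytic cells and a HIF target, was at 11.17, 11.57, 10.81 and 10.74 in shTardbp, at 11.88, 12.18, 11.96 and 12.05 in shGFP and at 11.80, 11.88 and 11.52 in shLuciferase. Its shTardbp arrays were lowest except that shTardbp 2 passed shLuciferase 4. Slc16a3 fell 1.74-fold against both controls (log2 -0.80, SE 0.136, adjusted p = 0.000452), 1.92-fold against shGFP and 1.58-fold against shLuciferase (adjusted p = 0.000364 and 0.00866). Without shTardbp 2 the change was -0.97 (adjusted p = 2.59e-05), and with the code letter as a block -0.54 (adjusted p = 0.191). Slc16a1 (MCT1), the transporter that also imports lactate, differed by 0.07 (interval -0.09 to 0.23, adjusted p = 0.585), and the lactate dehydrogenase subunit Ldhb was above background on 2 of 11 arrays.

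**Figure D2:**
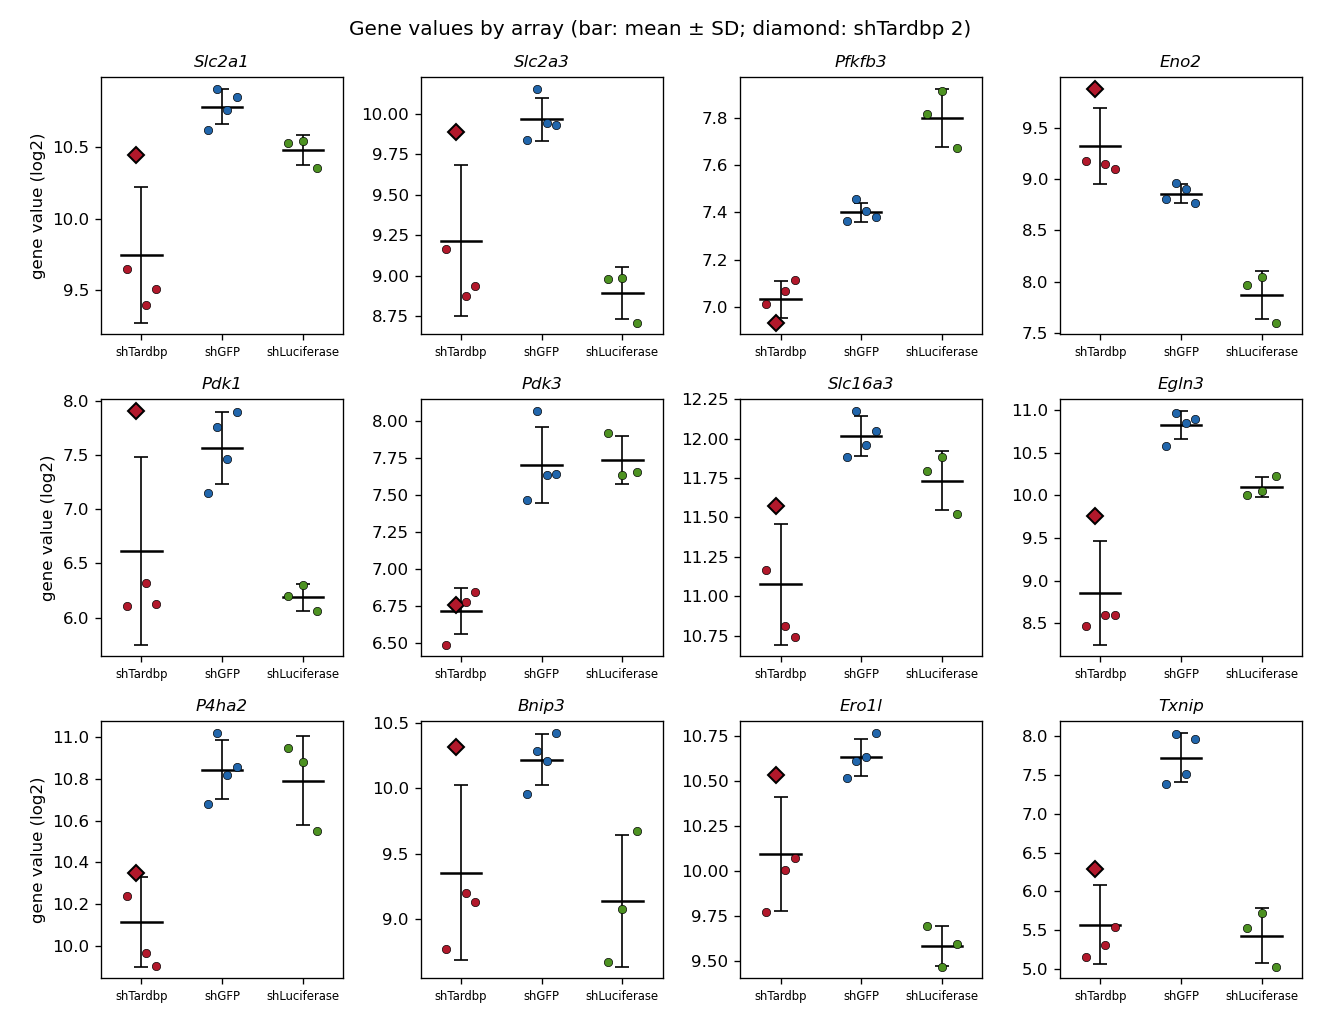
Log2 gene values of 12 members by array in shTardbp (4 arrays, left), shGFP (4 arrays) and shLuciferase (3 arrays); bars are the mean ± SD, each panel has its own axis, and the diamond is shTardbp 2. In Pdk1 the shTardbp 2 array, at 7.91, is the highest of the 11, whereas in Pfkfb3 and Pdk3 it lies with shTardbp 1, 3 and 4.

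The alpha subunits of HIF passed the threshold in none of the 4 comparisons. Hif1a, whose protein is mainly set by degradation, averaged 11.93 ± 0.0765 in shTardbp, 12.01 ± 0.0539 in shGFP and 11.95 ± 0.0296 in shLuciferase, with a change of -0.05 against both controls (interval -0.17 to 0.07, adjusted p = 0.605). Its value in shTardbp 2, 11.82, was the lowest of the 11 arrays. Epas1 (HIF-2 alpha) differed by 0.03 (interval -0.09 to 0.16, adjusted p = 0.767) and was also lowest in shTardbp 2, at 4.52, near that array's background of 4.51.

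Egln3 (PHD3), the most hypoxia-inducible of the prolyl hydroxylases, was the member that fell most against both controls. It was at 8.47, 9.76, 8.60 and 8.59 in shTardbp, at 10.59, 10.97, 10.85 and 10.89 in shGFP and at 10.01, 10.06 and 10.23 in shLuciferase. All 4 shTardbp arrays lay below all controls, shTardbp 2 lay between the other 3 and shLuciferase, and shGFP lay above shLuciferase. Egln3 fell 3.04-fold against both controls (log2 -1.61, SE 0.194, adjusted p = 2.72e-05), 3.92-fold against shGFP (adjusted p = 1.66e-05) and 2.37-fold against shLuciferase (adjusted p = 0.00132). Without shTardbp 2 the change was -1.91 (adjusted p = 1.62e-08), and with the code letter as a block -1.77 (adjusted p = 0.00914). All 13 probe sets were lower, by -1.99 to -1.18. Egln1 (PHD2), the main oxygen sensor of most cells, was at 10.07, 10.45, 9.94 and 10.08 in shTardbp, at 10.43, 10.82, 10.64 and 10.72 in shGFP and at 10.11, 9.998 and 9.83 in shLuciferase, with shGFP high, shTardbp 2 just inside the shGFP range and the other shTardbp arrays near shLuciferase. It fell against shGFP (log2 -0.52, SE 0.112, adjusted p = 0.00287), differed from shLuciferase by 0.15 (adjusted p = 0.456), and was 1.59-fold higher in shGFP than in shLuciferase (0.67, SE 0.121, adjusted p = 0.00251).

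Of the 9 hypoxia targets, 1 fell against both controls, while 4 fell against shGFP and 2 rose and 1 fell against shLuciferase, where 30.5%, 27.9% and 26.1% of all genes were called. Without shTardbp 2, 4 of the 9 fell against both controls (P4ha1, P4ha2, Bnip3 and Ankrd37), where 27.8% of all genes were called. Blocking on the code letter, 0 fell against both controls or against shGFP (2 and 1 by limma's unadjusted p under 0.05). In those blocked fits 15.9% and 12.2% of all genes were called. The median change of the 9 was -0.43 against shGFP and 0.11 against shLuciferase. Between the controls, 4 of the 9 were higher in shGFP than in shLuciferase, against 6.26% of all genes. P4ha2, a catalytic subunit of the collagen prolyl 4-hydroxylase, fell against each control. It was at 10.24, 10.35, 9.97 and 9.90 in shTardbp, at 10.68, 11.02, 10.82 and 10.86 in shGFP and at 10.95, 10.88 and 10.55 in shLuciferase. All shTardbp arrays lay below all controls, which overlapped each other. P4ha2 fell 1.63-fold against both controls (log2 -0.70, SE 0.103, adjusted p = 0.000140), with 18 of 18 probe sets lower, and by -0.73 against shGFP and -0.68 against shLuciferase (adjusted p = 0.000315 and 0.00111). With the code letter as a block the change was -0.40 (adjusted p = 0.156), though the shTardbp arrays, up to 10.35, also lay below the 10.55 of shLuciferase 4. The sister subunit P4ha1 averaged 9.56 ± 0.323 in shTardbp, 10.02 ± 0.173 in shGFP and 9.45 ± 0.145 in shLuciferase. It fell against shGFP (log2 -0.46, SE 0.139, adjusted p = 0.0221) and was higher in shGFP than in shLuciferase (0.57, SE 0.150, adjusted p = 0.0251), and these calls held in 7 and 5 of 11 fits that left out 1 array. The first was lost without shTardbp 3 or 4 or shGFP 2 or 5 (adjusted p up to 0.0746) or with the replicate number as a block (-0.35, adjusted p = 0.0616), the second without shGFP 2, 3 or 5 or any one shLuciferase array (up to 0.100).

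Bnip3, a mitophagy receptor of the outer mitochondrial membrane and a standard HIF target, was at 8.77, 10.32, 9.20 and 9.13 in shTardbp, at 9.96, 10.29, 10.21 and 10.43 in shGFP and at 8.67, 9.08 and 9.67 in shLuciferase. The spread was wide in shTardbp and in shLuciferase, with shTardbp 2 inside the shGFP range. Bnip3 fell 1.82-fold against shGFP (log2 -0.87, SE 0.276, adjusted p = 0.0299) and was 2.12-fold higher in shGFP than in shLuciferase (1.08, SE 0.298, adjusted p = 0.0320). These calls, on 2 probe sets, held in 5 and 6 of 11 fits that left out 1 array; the first was lost without shTardbp 1, 3 or 4 or shGFP 2, 3 or 5 (adjusted p up to 0.0983), the second without shGFP 2, 3 or 5 or shLuciferase 1 or 2 (up to 0.147). Without shTardbp 2 the difference from shGFP was -1.19 (adjusted p = 0.000540).

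Ero1l, now Ero1a, the oxidase that passes electrons from disulfide formation to oxygen in the endoplasmic reticulum, went opposite ways against the 2 controls. It was at 9.77, 10.53, 10.01 and 10.07 in shTardbp, at 10.52, 10.61, 10.63 and 10.77 in shGFP and at 9.69, 9.47 and 9.59 in shLuciferase. The shGFP arrays were high, shLuciferase low, and shTardbp between, with shTardbp 2 reaching shGFP. Ero1l fell 1.45-fold against shGFP (log2 -0.54, SE 0.127, adjusted p = 0.00548) and rose 1.43-fold against shLuciferase (0.51, SE 0.137, adjusted p = 0.0131), so the change against both was -0.01 (adjusted p = 0.961). The rise was lost without shLuciferase 2 (0.45, adjusted p = 0.0613). With the code letter as a block the fall against shGFP and the rise against shLuciferase both lost their calls (adjusted p = 0.209 and 0.123). Ero1l was 2.07-fold higher in shGFP than in shLuciferase (1.05, SE 0.137, adjusted p = 0.000222). Vegfa, the vascular growth factor, also lay between the controls without overlap, with means of 10.69 ± 0.0751 in shTardbp, 10.87 ± 0.0849 in shGFP and 10.39 ± 0.160 in shLuciferase. It rose against shLuciferase (log2 0.30, SE 0.0843, adjusted p = 0.0178), a call lost without shTardbp 2 or shLuciferase 4 (adjusted p = 0.0510 and 0.0785), and differed from shGFP by -0.19 (adjusted p = 0.0920). The Vegfa rise was also lost with neighbouring genes subtracted (adjusted p = 0.146). Between the controls Vegfa was higher in shGFP (0.49, adjusted p = 0.00189).

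The other hypoxia targets passed in none of the 4 comparisons. Ankrd37 was at 5.48 in shTardbp 2 and 4.54 to 4.64 in the other shTardbp arrays, against 5.00 to 5.39 in shGFP and 4.87 to 4.97 in shLuciferase, and without shTardbp 2 its change against both controls was -0.48 (adjusted p = 0.000824). The values of shTardbp 1, 3 and 4 lay just above the background of 4.46 to 4.57, so this fall is limited by signal. Over the alternatives run, the Ankrd37 difference between shGFP and shLuciferase ran from -0.22 to 0.42. Against both controls, Mxi1, a Myc antagonist, differed by 0.14 (adjusted p = 0.236), and Ndrg1, a stress-induced gene of differentiation, by 0.04 (adjusted p = 0.782). Car9, a membrane carbonic anhydrase, was not above background.

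**Figure D3:**
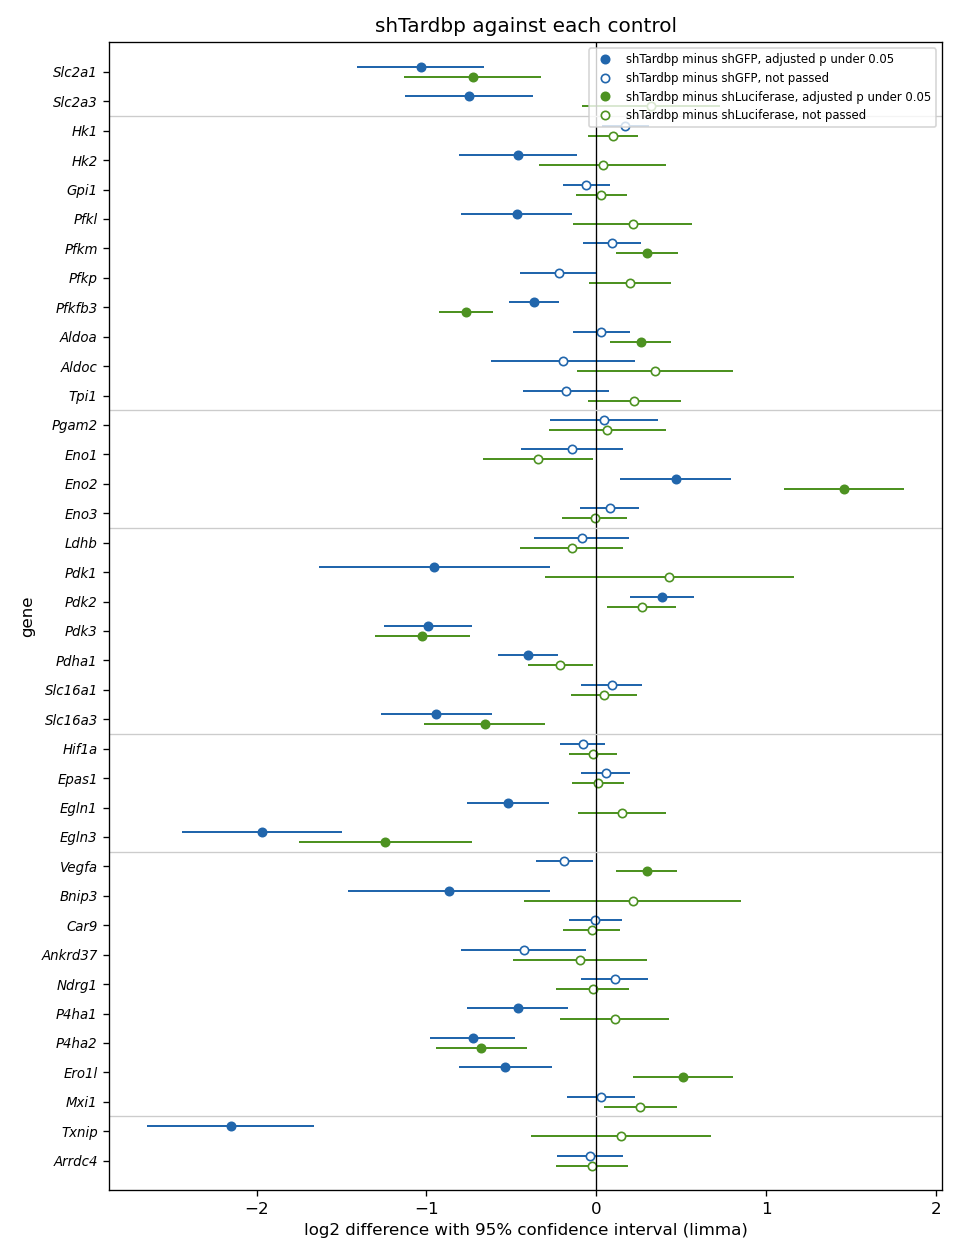
Log2 differences of the 38 genes with 95% confidence intervals, shTardbp minus shGFP (blue) and shTardbp minus shLuciferase (green); filled points passed an adjusted p of 0.05 and the 2 comparisons share the shTardbp arrays. Slc2a1, Pfkfb3, Pdk3, Slc16a3, Egln3 and P4ha2 are filled left of 0 for both controls and Eno2 right of 0 for both, Ero1l is filled on opposite sides, and Txnip is at -2.15 against shGFP and 0.15 against shLuciferase.

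Members that were higher in shTardbp 2 than in the rest of its group tended to be those that were higher in shGFP than in shLuciferase. The 2 differences have no array in common, since one is shTardbp 2 minus the mean of shTardbp 1, 3 and 4 and the other is shGFP minus shLuciferase. Across the 38 members they had a Pearson r of 0.767 and a Spearman rho of 0.818, and across 27 measured genes of a companion list of other hypoxia-induced genes 0.764 and 0.645. Across all 15803 genes the values were 0.0855 and 0.0405. These are descriptions across genes, which are not independent replicates and share the arrays, and the array was singled out after its values were seen. Both the members and the companion list were chosen with earlier results of these data known, so neither gives independent support. The companion list holds Selenbp1 and Cox4i2, which ranked 1 and 4 of 15803 genes by the shTardbp 2 difference. Pdk1, Bnip3, Slc2a3, Txnip and Ero1l were high on both counts, and Pfkfb3 was below 0 on both (-0.13 in shTardbp 2, -0.40 in shGFP). Of the companion genes, Selenbp1, which encodes a selenium-binding protein, was at 8.13 in shTardbp 2 against 5.16, 5.82 and 5.35 in the other 3, the largest difference of all genes, and its difference between the controls was 1.37 (adjusted p = 0.143). Cox4i2, the subunit of cytochrome oxidase used at low oxygen, was at 7.34 against 5.35 to 5.41. Stc1, a secreted glycoprotein induced by hypoxia, was at 5.71 against 4.54 to 4.65. The lower Stc1 values lay near the background of 4.46 to 4.57, so this difference is limited by signal. Stc1 was higher in shGFP than in shLuciferase (log2 1.45, SE 0.220, adjusted p = 0.000720). These 3 were chosen after their values were seen.

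**Figure D4:**
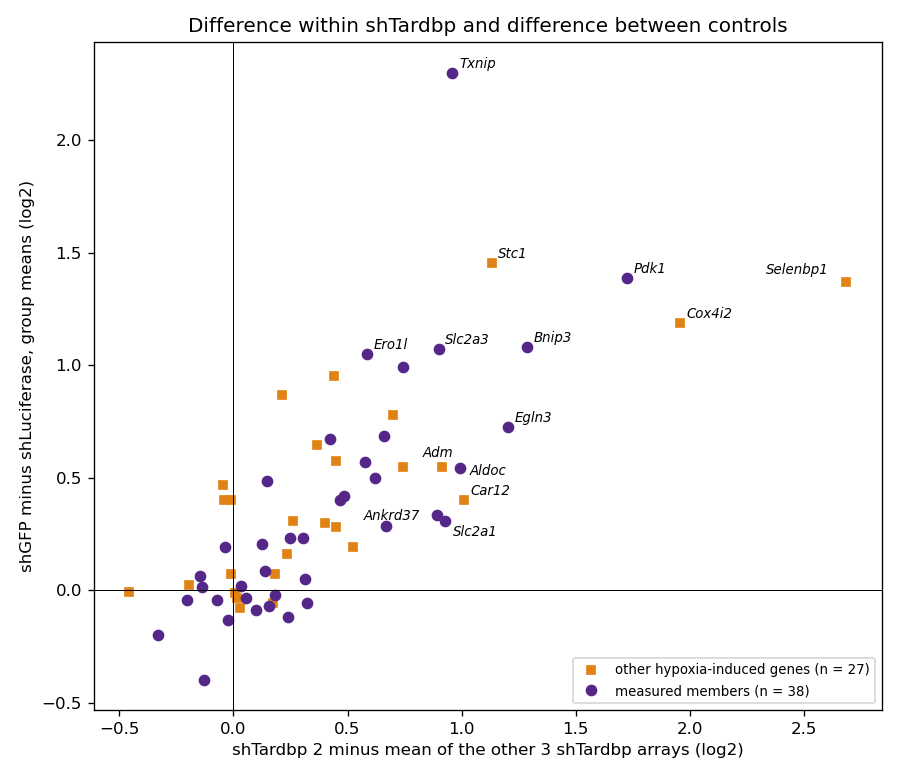
Each point is a gene, placed by shTardbp 2 minus the mean of the other 3 shTardbp arrays (x, log2) and by shGFP minus shLuciferase (y, log2), for the 38 measured members (circles) and 27 other hypoxia-induced genes (squares). Both sets run up to the right, with r of 0.767 and 0.764, Txnip the highest point at 2.30 and Selenbp1 the farthest right at 2.68.

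Companion lists set the members beside neighbouring pathways, read against 30.5% of all genes called against both controls. Of 15 other glycolysis genes 1 rose and 3 fell. Slc16a7 (MCT2), a high-affinity monocarboxylate transporter of neurons, fell (log2 -1.18, SE 0.137, adjusted p = 2.03e-05), as did Slc2a10 (GLUT10; -0.54, adjusted p = 9.20e-05), and Pfkfb2, a sister of Pfkfb3, rose (0.63, SE 0.0790, adjusted p = 3.86e-05). Pfkfb2 averaged 7.52 ± 0.154 in shTardbp, 6.86 ± 0.139 in shGFP and 6.92 ± 0.0656 in shLuciferase, so it rose where Pfkfb3 fell, with no overlap of shTardbp and controls in either. Of 7 genes of pyruvate dehydrogenase and pyruvate entry, pyruvate carboxylase Pcx rose (0.57, adjusted p = 0.000363) and the E3 subunit Dld fell (-0.26, adjusted p = 0.0338). Of 16 genes of the tricarboxylic acid cycle 4 fell, among them Dlst of the oxoglutarate dehydrogenase complex (-0.36), fumarase Fh1 (-0.37) and the succinate dehydrogenase subunit Sdhc (-0.26). Of 8 pentose phosphate genes 4 fell, including transketolase Tkt (-0.39), Rpia (-0.41) and H6pd (-0.24). With the code letter as a block Rpia alone of these 8 fell, none of the 16 cycle genes passed (limma's unadjusted p was under 0.05 for 1 higher and 3 lower), and Dld was at -0.10 (adjusted p = 0.711). The Dld call was also lost without shTardbp 2 (-0.17, adjusted p = 0.129).

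Among 13 regulators of the HIF pathway 1 rose and 1 fell against both controls. Cul2, the scaffold of the ligase that marks HIF for destruction, rose (log2 0.55), and Cited2, an inhibitor of HIF transactivation, fell (-0.16), a call lost with the code letter as a block (adjusted p = 0.221). Of 27 other hypoxia-induced genes 3 rose and 8 fell (2 and 3 with the code letter as a block, 18.5% against 15.9% of all genes). Stc2, a stanniocalcin, fell (-0.88, SE 0.0653, adjusted p = 4.07e-07), the carbonic anhydrase Car12 fell (-1.68, SE 0.163, adjusted p = 4.16e-06) and Insig2, a regulator of sterol synthesis, rose (0.51, SE 0.0617, adjusted p = 2.89e-05). Between the controls 10 of the 27 were higher in shGFP, against 6.26% of all genes, and 16 were without shTardbp 2. Of 16 MondoA, Myc and thioredoxin genes 1 rose and 6 fell. Myc, which drives many glycolysis genes, fell (log2 -0.59, SE 0.0582, adjusted p = 5.09e-06), Mxd3 fell (-0.50, adjusted p = 0.000973) and the Myc antagonist Mxd4 rose (0.61, adjusted p = 0.000147; with the code letter as a block 0.54, adjusted p = 0.0575). Of the factors that drive Txnip, looked up after their values were seen, Mlxip (MondoA) differed by -0.03 against both controls (adjusted p = 0.818) and by 0.05 between the controls (adjusted p = 0.801), and Mlx fell by 0.32 (adjusted p = 0.00503). Mlxipl (ChREBP) differed by -0.14 against both controls (adjusted p = 0.160), and by -0.36 with the code letter as a block (adjusted p = 0.0439).

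Usage, meaning how far a probe set departs from the mean of its gene's remaining probe sets, could be tested for 401 probe sets in 31 of the members. Of these 401 probe sets 3 passed the threshold, against 1.42% of the 132077 probe sets tested. They lay in 3 of the 31 genes, against 9.11% of the 11639 genes tested, so these counts are no result about the list. In Pdk3, probe set 4674122 differed by 0.15 from both controls while the other 14 changed by -1.48 to -0.556, a usage difference of 1.24 (SE 0.165, adjusted p = 0.00444). Pdk3's gene value thus averages 1 probe set that did not follow the fall with 14 that did. In Slc16a3, probe set 4494723 changed by -1.22 and the other 4 by -0.833 to -0.620 (usage -0.53, SE 0.103, adjusted p = 0.0304). In Egln3, probe set 4681784 changed by -1.22 and the other 12 by -1.99 to -1.18 (usage 0.42, SE 0.0879, adjusted p = 0.0418). Without positions for the probe sets, none of these is assigned to an exon. The number of member probe sets called ranged from 1 to 4 when single arrays were left out.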

How the data were processed

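RNA of 11 NSC34 samples was measured on Affymetrix whole-transcript arrays, labelled with the Ambion WT Expression kit per the labels' protocols. The deposited values are log2 values of 194293 probe sets, for which Partek and RMA are named per the submitters' processing notes, while for the versions, the normalization and the build of the annotation nothing is given in these sources. The platform annotation gave 179496 probe sets 1 gene symbol, 1328 several and 13469 none, and single-symbol probe sets were averaged to a value per gene. Of 15803 genes, 15765 were found in the RefSeq gene table of GRCm38.p6, which served for names and neighbours.

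A 3-group linear model (limma 3.58.1, R 4.3.3, lmFit and eBayes) was fitted to all genes without a filter, with Benjamini-Hochberg adjustment across the whole table (threshold 0.05). The reference for both controls was the mean of the 2 control group means. Usage was tested in the same way on probe sets above the 25th percentile in genes with at least 3 of them. The tests were run first on simulated data. The members and lists were chosen with earlier results of these data known. Named were all measured members, Tardbp, at most 3 genes per companion list with the smallest adjusted p past the threshold, and member probe sets past the usage threshold; other names are marked where they occur. Probe set combination, level filters, normalization, array weights, replicate number and code letter as blocks, subtraction of neighbouring genes and leaving out each array were varied. Replicate numbers come from the sample labels, which do not say what they share. Deviations from the group means correlated at 0.116 to 0.201 in the 3 same-number pairs of shTardbp and shGFP, -0.0434 to 0.121 in the 3 of shTardbp and shLuciferase, and -0.0561 and 0.263 in the 2 of the controls (medians 0.118 over the 8 and -0.0122 over 32 pairs of unlike number). A pair of unlike number, shGFP 3 and shTardbp 4, reached 0.287, above every same-number pair. These correlations therefore do not settle whether the numbers pair arrays. The main fits used no pairing, and the number entered only as a block among the alternatives. The number of arrays limits the precision.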

Additional observations from a re-analysis of the deposited data

Results flagged for a closer look

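In 8 of 76 gene and group combinations of 4 arrays, 1 array lay far from the other 3 by Dixon's test, and in all 8 it was shTardbp 2. Chance alone picks out about 5% of such groups, and genes of the same arrays are not independent. Aldoc was at 9.83 in shTardbp 2 and 8.79 to 8.88 in the other 3 shTardbp arrays. Pdk1 was at 7.91 there and 6.11 to 6.32 in the others, and Egln3 at 9.76 against 8.47 to 8.60. Eno2 was at 9.88 against 9.10 to 9.18, Pfkl at 10.25 against 9.56 to 9.62 and Pfkp at 10.33 against 9.82 to 9.89. Tpi1 was at 12.54 against 12.05 to 12.09, and Ankrd37 at 5.48 against 4.54 to 4.64. In each of these genes shTardbp 2 was the high array.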

How the results depend on the processing

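No value of the 38 members changed direction while called, under any alternative run. Blocking on the array code letter, 2509 genes were called against both controls (4825 without it) and 1933 against shGFP (4416), 3 members fell against both controls (8), 0 rose and 3 fell against shGFP (2 and 16; limma's unadjusted p was under 0.05 for 2 that were higher), 3 rose and 3 fell against shLuciferase (5 and 6), and Tardbp was at -0.29 (adjusted p = 0.173). The letter nearly coincides with the groups, so it cannot be told apart from shTardbp except through shLuciferase 4. With the median of the probe sets, 962 genes differed between the controls (1752 with the mean), 1 member rose against shGFP, 3 rose against shLuciferase and 0 were lower in shGFP than in shLuciferase (2 by limma's unadjusted p). With neighbouring genes subtracted, 1 member rose against shGFP and 3 against shLuciferase. Array weights gave 2916 genes between the controls. Usage called 714 probe sets when limited to those above the median level and 3195 with diffSplice, against 1875; causes were not tested.

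The replicate block, a pairing by number, gave 1000 genes between the controls and, of 152 member results, took away 6 calls and added 2; against shGFP it ended the calls of Hk2, Pdk1 and P4ha1 and changed no other member's. Of 11 arrays, 5 correlated best with their own number. Leaving out 1 array at a time, 4093 to 4984 genes were called against both controls, 3765 to 4710 against shGFP, 3361 to 4220 against shLuciferase and 1204 to 1743 between the controls. Members that rose and fell numbered 2 to 4 and 8 to 15 against both controls, 1 to 2 and 11 to 20 against shGFP, 3 to 6 and 6 to 7 against shLuciferase, and 7 to 17 were higher in shGFP than in shLuciferase. The 15, the 20 and the 17 came without shTardbp 2, and the 7 without shGFP 5 or shLuciferase 1. The 1 came without shTardbp 2 or shGFP 1, 3 or 5, and the 3 without shTardbp 2 or shLuciferase 2 or 4. Usage called 986 to 1769 probe sets, with 986 without shTardbp 3, and 1 to 4 member probe sets, with 1 when shTardbp 1, 3 or 4, shGFP 2, 3 or 5, or shLuciferase 1 or 2 was left out. Tardbp ran from -0.44 to -0.37. Genes near background, above all Eno1, Car9, Arrdc4 and Ldhb, are limited by signal. So are Epas1 in shTardbp 2, and Ankrd37 and Stc1 in shTardbp 1, 3 and 4.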

Other observations

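Of the companion genes, Selenbp1 was at 5.16, 8.13, 5.82 and 5.35 in shTardbp, at 6.66, 6.69, 5.77 and 7.09 in shGFP and at 5.09, 5.55 and 4.92 in shLuciferase, so shTardbp 2 was the highest of the 11 arrays. Selenbp2, a close relative whose RNA may bind the same probes, ranked 11 of 15803 genes by the same difference (1.35). Cox4i2 was at 5.35, 7.34, 5.41 and 5.39 in shTardbp, at 6.69, 6.90, 6.54 and 6.72 in shGFP and at 5.13, 5.42 and 6.02 in shLuciferase, and again shTardbp 2 was the highest. These genes were picked after their values were seen.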
